A study of Mus musculus with 7 samples.

Results

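The genes described here are 10 transcription factors that read T-cell receptor signals at AP-1 and interferon regulatory factor sites: the BATF proteins *Batf* and *Batf3*, the IRF proteins *Irf4* and *Irf8*, the JUN proteins *Jun*, *Junb*, and *Jund*, the FOS proteins *Fos* and *Fosl2*, and the bZIP repressor *Bach2*. They were taken by gene symbol, with no threshold on their values but with earlier results of these data known, from 55367 genes in the count table. All 10 were among the 12623 genes with enough counts to be tested. CD8+ T cells from mouse spleen were sorted by FACS, exposed for 48 hours to 100 μg/mL of small extracellular vesicles (sEV), and profiled by 3′ RNA-seq. The study's methods describe stimulation with anti-CD3, anti-CD28, and IL2 in cultures of CD8+ T cells, which the labels leave out. In 4 libraries the vesicles were control EVs, called HCME-sEVs for the healthy-control microenvironment, and in 3 libraries they were leukemia EVs from the Eμ-*TCL1* mouse model of chronic lymphocytic leukemia, called LME-sEVs for the leukemia microenvironment. In that model a *TCL1* transgene is driven in B cells, and the vesicles came from whole spleen, so they need not stem from leukemic cells alone. The labels give the strain Foxp3 YFP/cre and the same sort, dose, and time for the T cells of every library, controls included. The study's methods instead describe vesicle amounts matched to each kind of spleen, so an equal dose is not certain, and if the amounts differed, dose and kind of vesicle cannot be told apart in any difference below. The labels give no age, and the methods give only a general range of young adult age for the mice. Whether the libraries of a group came from separate mice or cultures was not given either, so a p-value here measures the spread between these libraries, which may be technical.

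AP-1 is a dimer of bZIP proteins, usually a JUN with a FOS, that forms when a T cell is stimulated. BATF and BATF3 lack the transactivation domains of FOS, pair with JUN proteins, and recruit IRF4 or IRF8 to composite AP-1 and IRF elements, where effector genes of activated CD8+ T cells are regulated. BACH2 binds AP-1-like sites through its own bZIP domain and restrains effector programs, which keeps T cells nearer to the naive and memory states. IRF4 rises with the strength of T-cell receptor signaling, and BATF3 has been tied to the survival of CD8+ T cells as they pass into memory.

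Levels are CPM, counts scaled to a common library total and then by TMM, a correction for library composition. A gene was called when its false discovery rate (FDR) was under 0.05, by the quasi-likelihood test of edgeR and the Benjamini-Hochberg procedure on the 12623 genes. Totals ran from 3689831 to 5030522 counts per library, and a floor of 3 counts, which allows for counting error only, was worth 0.582 to 0.807 CPM. TMM factors were 0.965 to 1.002 with HCME-sEVs and 1.01 to 1.03 with LME-sEVs. The CD8 label was borne out by its markers, with *Cd8a* at 363.7 ± 15.9 CPM (SD, n = 4) and 418.5 ± 17.1 CPM (SD, n = 3), while *Cd4* had a mean of 1 count per library.

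*Batf3* and *Irf4* fell with LME-sEVs, *Batf3* to 50.9% and *Irf4* to 74.9% of the mean level with HCME-sEVs. None of the other 8 factors passed the test, and none of the 10 was called higher. The 2 calls make 20% of the 10 genes, against 8.96% of all tested genes called in either direction, 3.75% called higher, and 5.21% called lower. No factor reached the log2 fold change of 1 that was asked of a differentially expressed gene beside the FDR, a mark passed by 1.28% of tested genes. The median log2 fold change of the 10 genes was -0.14, with 8 values below 0 and 2 above, beside 0.01 over all tested genes. At an unadjusted p under 0.05, 1 factor was higher (*Bach2*) and 3 were lower (*Batf3*, *Irf4*, and *Batf*). DESeq2 and limma-voom called none of them higher, as did edgeR. In RNA from whole cultures, fewer cells of a type and less RNA per cell cannot be told apart, and this holds for each difference below.

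**Figure D1:**
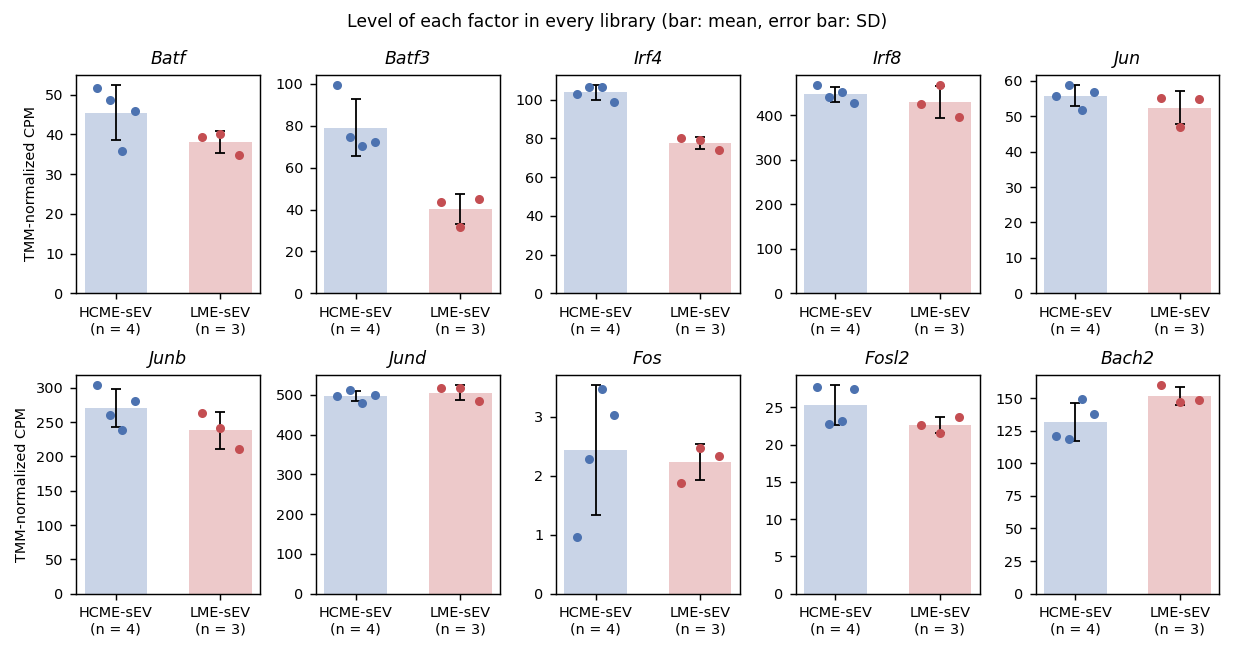
TMM-normalized CPM (y axis, from 0) of each of the 10 factors in the 4 HCME-sEV and 3 LME-sEV libraries. Points are libraries, bars are means, and error bars are SD. For *Batf3* and *Irf4* every LME-sEV point lies below every HCME-sEV point, and for the other 8 factors the groups overlap.

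*Batf3* is on chr1:191097847-191108945 (GRCm38, + strand). Its RefSeq promoter window (GRCm38.p6) overlaps alternative first exons of the GENCODE annotation, so the stretch between 2 of these exons is shown, to place the gene whose RNA moved most. It lies inside the annotated gene, within the first intron of the transcripts that start further upstream. It has 80.5% G and C and ends 90 bases before the RefSeq start, and capitals mark the GC box GGGCGG on either strand, which is bound by SP family factors.
*Batf3* chr1:191098238-191098324: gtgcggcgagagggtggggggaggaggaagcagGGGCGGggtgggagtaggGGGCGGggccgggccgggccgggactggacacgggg

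With HCME-sEVs, *Batf3* stood at 99.5, 74.8, 70.2, and 72.2 CPM in libraries 1 to 4. With LME-sEVs it stood at 43.9, 31.9, and 45.0 CPM. The LME-sEV libraries were all below the lowest control library, and HCME-sEV library 1 stood above the other 3 controls. The means were 79.1 ± 13.7 CPM (SD, n = 4) and 40.3 ± 7.24 CPM (SD, n = 3). *Batf3* thus had a log2 fold change of -0.98 with a standard error of 0.13 and a 95% interval of -1.26 to -0.70 (edgeR FDR = 1.88e-04). In a two-sided exact permutation test of the library means p was 0.0286, the smallest that 4 against 3 libraries can give. *Batf3* ranked 28th of 12623 genes by the p-value of the fit, and 15th among the genes with lower values. Without HCME-sEV library 1 the log2 fold change was -0.84 (edgeR FDR = 6.51e-05).

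*Irf4*, at chr13:30749226-30766976 (GRCm38, + strand), encodes the IRF that binds beside BATF and JUN. The bases before its annotated first exon, 63.8% G and C and ending 8 bases before the RefSeq start, are given for comparison with *Batf3*, with GC boxes and the TATA box TATAAA in capitals.
*Irf4* chr13:30748983-30749225: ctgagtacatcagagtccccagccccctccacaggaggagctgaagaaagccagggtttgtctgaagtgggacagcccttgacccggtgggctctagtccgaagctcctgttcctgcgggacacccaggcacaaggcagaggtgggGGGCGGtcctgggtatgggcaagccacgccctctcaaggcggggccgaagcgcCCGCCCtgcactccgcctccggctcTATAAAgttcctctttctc

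*Irf4* was at 102.6, 106.7, 106.7, and 98.7 CPM in the 4 HCME-sEV libraries and at 79.9, 78.9, and 74.1 CPM in the 3 LME-sEV libraries. Both groups were tight and lay well apart. *Irf4* averaged 103.7 ± 3.83 CPM in controls (SD, n = 4) and 77.6 ± 3.12 CPM after LME-sEVs (SD, n = 3). Its log2 fold change was -0.42 with a standard error of 0.08 and a 95% interval of -0.59 to -0.24 (edgeR FDR = 0.00398). The two-sided exact permutation p was again the smallest possible, 0.0286. *Irf4* ranked 226th of the tested genes by p-value. *Batf3* and *Irf4* were the 2 factors whose groups did not overlap, both with lower LME-sEV values, which 10.8% of all tested genes also showed (20.3% in either direction).

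Both printed stretches held 2 GC boxes and the *Irf4* stretch held 1 TATA box. Of the 32851 RefSeq promoter windows of 300 bases, 35.7% held a GC box on either strand and 13.6% held TATAAA. Among the 11 windows of the 10 factors, 7 held a GC box (*Batf*, *Batf3*, *Fos*, *Fosl2*, *Irf4*, *Irf8*, and *Jun*) and 4 held TATAAA (*Fos*, *Irf4*, *Irf8*, and *Junb*). The AP-1 heptamer TGAGTCA was in 0 of the 11 windows and 5.2% of all windows, and the CRE octamer TGACGTCA in 0 of 11 and 1.79%. The letters found in 0 of 11 are thus not in these windows, which is not unusual at such shares. Other bases around the genes were not searched.

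*Batf*, at chr12:85686669-85709087 (GRCm38, + strand), encodes the BATF protein required for effector CD8+ T-cell expansion. It was at 51.8, 48.7, 35.7, and 45.9 CPM with HCME-sEVs and at 39.3, 40.2, and 34.9 CPM with LME-sEVs. HCME-sEV library 3 lay among the LME-sEV values, so the groups overlapped. The means were 45.5 ± 6.95 CPM (SD, n = 4) and 38.1 ± 2.84 CPM (SD, n = 3). For *Batf* the log2 fold change was -0.26 with a 95% interval of -0.52 to -0.0074 before adjustment (edgeR FDR = 0.206, two-sided exact permutation p = 0.171). Leaving out HCME-sEV library 3 gave -0.36 with an edgeR FDR of 0.0438, so the call on *Batf* turned on that library.

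Within a library, *Batf3* supplied the larger part of the *Batf* and *Batf3* counts with HCME-sEVs. Its share was 65.8%, 60.6%, 66.2%, and 61.1% in the 4 libraries. The exact binomial 95% intervals, which cover counting error only, spanned 56.1% to 70.9% over these libraries. With LME-sEVs the share was 52.8%, 44.2%, and 56.3%, with intervals spanning 38.7% to 61.2%. The LME-sEV shares were all below the HCME-sEV shares, and in LME-sEV library 2 *Batf* outnumbered *Batf3*. The log2 ratio of *Batf* to *Batf3* was -0.80 ± 0.19 (SD, n = 4) with HCME-sEVs and -0.06 ± 0.36 (SD, n = 3) with LME-sEVs, a difference of 0.73. Since QuantSeq reads one end per molecule, gene length does not enter these comparisons between genes, though capture of different 3′ ends may.

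*Irf8*, at chr8:120736358-120756694 (GRCm38, + strand), encodes the IRF closest in kind to *Irf4*, best known from dendritic cells, macrophages, and B cells. Its level was 468, 441, 451, and 427 CPM with HCME-sEVs and 426, 467, and 396 CPM with LME-sEVs. LME-sEV library 1 lay just below the lowest control, LME-sEV library 3 further below it, and LME-sEV library 2 near the highest control, so the groups overlapped. With *Irf8* the log2 fold change was -0.06 with a 95% interval of -0.21 to 0.10 (edgeR FDR = 0.728), so a fall of the size seen for *Irf4* lay outside the interval. The log2 ratio of *Irf4* to *Irf8* was -2.19, -2.05, -2.08, and -2.11 with HCME-sEVs. With LME-sEVs it was -2.41, -2.57, and -2.42, below every control value, by 0.36 on average.

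Because *Irf8*, *Irf4*, and *Batf3* are also used by antigen-presenting cells, markers of those cells stand beside them. The 14 dendritic-cell and macrophage markers summed to 9.38 to 15.7 CPM with HCME-sEVs and to 16.1 to 20.2 CPM with LME-sEVs. Only 2 of the 14 had enough counts to be tested, neither was called by edgeR or DESeq2 although both had higher values at an unadjusted p under 0.05, *Fcgr1* had 0 counts in every library, and 11 of them never exceeded 10 counts. *Xcr1* and *Clec9a*, which define the dendritic cells that depend on BATF3 and IRF8, had at most 1 count. By contrast, *Itgam* had 0, 0, 0, and 1 counts with HCME-sEVs and 6, 8, and 6 with LME-sEVs. *Itgax* had 3, 1, 2, and 0 counts with HCME-sEVs and 5, 4, and 11 with LME-sEVs. The counts of *Csf1r* overlapped, at 4, 3, 0, and 4 with HCME-sEVs and 2, 3, and 4 with LME-sEVs. The 16 B-cell markers summed to 274 to 316 CPM with HCME-sEVs and 360 to 384 CPM with LME-sEVs, most of it from *Ighm*. Without *Ighm*, the other 15 summed to 47.5 to 54.0 CPM and 52.7 to 65.6 CPM. *Cd74* and *Ighm* rose and *Fcmr* fell, though DESeq2 did not call *Cd74* (adjusted p = 0.105). The defining markers *Cd79a* and *Pax5* had at most 2 and 6 counts, whereas *Cd79b* had 7 to 22, *Ebf1* 12 to 23, *Cr2* 28 to 56, *H2-Aa* 14 to 40, and *Ighd* 9 to 29 counts. *Ighd*, which was not called, was at 2.1 to 4.31 CPM with HCME-sEVs and 5.17 to 6.73 CPM with LME-sEVs. Basophil and mast-cell markers (8 genes) summed to 8.91 to 37.5 CPM with HCME-sEVs and 32.2 to 51.2 CPM with LME-sEVs, and 3 of the 7 tested rose (*Mcpt8*, *Prss34*, and *Prg2*), of which DESeq2 called *Prg2* alone (adjusted p = 0.391 for *Mcpt8* and 0.268 for *Prss34*). *Prg2* had 0, 2, 2, and 2 counts with HCME-sEVs and 18, 41, and 21 with LME-sEVs. Its log2 fold change of 3.92 was the highest of all tested genes, whereas that of *Cpa3* was -0.26 without a call. The part of the antigen-presenting, basophil, and mast cells in the levels of the 10 factors was not tested. Beside these marker calls, 3.75% of all tested genes were called higher and 5.21% lower. Natural killer markers (4 genes) summed to 176 to 199.5 CPM and 159 to 176 CPM, nearly all of it from *Eomes*, which CD8+ T cells also express and which was not called. *Ncr1*, *Klra8*, and *Klrb1c* had at most 1, 1, and 8 counts.

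The T-cell and CD8 markers themselves were 2408 to 2565 CPM in sum with HCME-sEVs and 2668 to 2999 CPM with LME-sEVs. Of the 11 genes, 3 rose (*Cd3e*, *Cd3g*, and *Cd28*) and the other 8 did not pass, and DESeq2 did not call *Cd3g* (adjusted p = 0.309). Over all tested genes, 3.75% were called higher. At an unadjusted edgeR p under 0.05, 6 of the 11 were higher, *Cd8a* and *Cd8b1* among them, and 0 lower. Of 4 CD4 and regulatory T-cell markers, *Foxp3* and *Cd4* were too low to test, and *Ikzf2* and *Zbtb7b* rose.

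*Bach2*, at chr4:32238804-32586108 (GRCm38, + strand), had the highest log2 fold change of the 10. It was at 121, 119, 149.6, and 138 CPM with HCME-sEVs and 159.8, 147, and 148 CPM with LME-sEVs. HCME-sEV library 3 exceeded LME-sEV libraries 2 and 3, so the groups overlapped. The means were 131.9 ± 14.6 CPM (SD, n = 4) and 151.8 ± 6.98 CPM (SD, n = 3). The log2 fold change was 0.20 with a 95% interval of 0.02 to 0.39 before adjustment (edgeR FDR = 0.177, two-sided exact permutation p = 0.143), and *Bach2* is thus not called. HCME-sEV library 3, the highest control for *Bach2*, was the lowest control for *Batf*.

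Set against *Bach2*, *Irf4* differed in every library. The linear ratio of *Irf4* to *Bach2* was 0.847, 0.898, 0.713, and 0.715 with HCME-sEVs and 0.50, 0.536, and 0.499 with LME-sEVs. The groups did not overlap, and the mean log2 difference was -0.63. For *Batf* to *Bach2* the mean log2 difference was -0.45, and the groups overlapped, as they did for *Jun* to *Jund*, *Junb* to *Jund*, and *Fos* to *Fosl2*. No test was made of these ratios, which are built from the same values as the single genes.

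**Figure D2:**
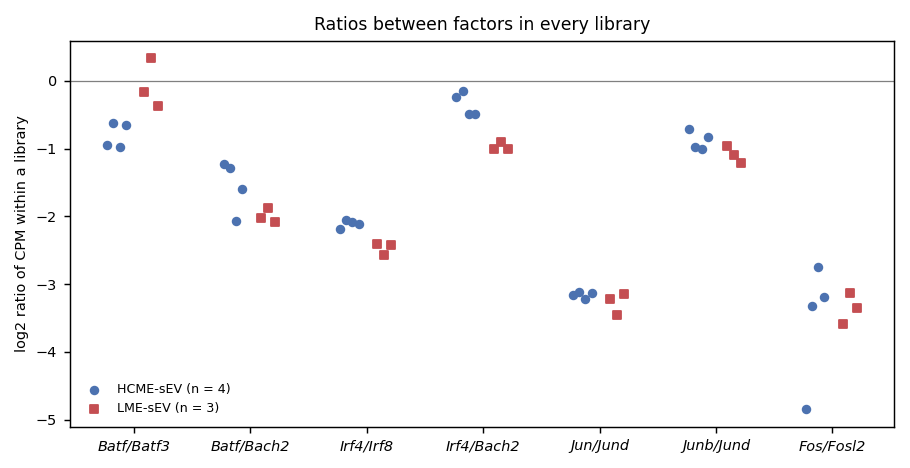
Log2 ratio of the CPM of 2 factors within a library (y axis) for 7 pairs of factors (x axis), with one point per library. The ratios *Irf4*/*Irf8* and *Irf4*/*Bach2* are lower in every LME-sEV library than in any HCME-sEV library, *Batf*/*Batf3* is higher, and the other 4 overlap.

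The JUN proteins are the partners shared by FOS and BATF. *Jun*, at chr4:95049034-95052222 (GRCm38, − strand), was at 55.7, 58.8, 51.7, and 56.8 CPM with HCME-sEVs and 55.2, 47.0, and 54.9 CPM with LME-sEVs. The groups overlapped, with a log2 fold change of -0.09 and a 95% interval of -0.30 to 0.11 (edgeR FDR = 0.637). *Junb*, at chr8:84974484-84978718 (GRCm38, − strand), a JUN protein that partners BATF in T cells, was at 303.8, 260.5, 238.7, and 280.5 CPM with HCME-sEVs and 263.9, 240.9, and 210.4 CPM with LME-sEVs. Its lowest value was in an LME-sEV library and its highest in a control library, with overlap between them. *Junb* had a log2 fold change of -0.19 with a 95% interval of -0.38 to 0.0046 (edgeR FDR = 0.233). *Jund*, at chr8:70698949-70700616 (GRCm38, + strand), the JUN protein kept at steady levels in resting cells, was at 498, 512, 480, and 499 CPM with HCME-sEVs and 516, 517, and 485 CPM with LME-sEVs. Its 95% interval of -0.12 to 0.17 around a log2 fold change of 0.02 was the narrowest of the 10 (edgeR FDR = 0.878).

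The 3 JUN genes kept much the same proportions. *Jund* supplied 58.1% to 62.3% of their summed counts with HCME-sEVs and 61.8% to 64.6% with LME-sEVs. *Junb* supplied 31.0% to 35.4% and 28.1% to 31.6%, and *Jun* 6.49% to 7.07% and 5.84% to 7.32%. The ranges of the groups overlapped for each gene. *Junb* counts may include reads of *Prdx2* on the opposite strand, since the strand setting was not stated. The 3 shares and the *Junb* to *Jund* ratio are uncertain to that extent.

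*Fos*, at chr12:85473890-85477273 (GRCm38, + strand), the founding FOS protein and an immediate early gene, was close to the limit of these libraries at this time. It had 4, 9, 13, and 13 counts with HCME-sEVs and 7, 11, and 12 counts with LME-sEVs. The values, 0.964 to 3.47 CPM and 1.88 to 2.47 CPM, overlapped. The log2 fold change of -0.11 had a 95% interval of -0.99 to 0.77 (edgeR FDR = 0.918), so a change of the size of that of *Batf3* would not be told from none at this depth. *Fosl2*, at chr5:32135801-32157842 (GRCm38, + strand), was more abundant, at 27.7, 22.8, 23.2, and 27.5 CPM with HCME-sEVs and 22.6, 21.6, and 23.7 CPM with LME-sEVs. The groups overlapped, with a log2 fold change of -0.16 and a 95% interval of -0.43 to 0.11 (edgeR FDR = 0.496).

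Ordered by mean CPM, *Jund* was the most abundant of the 10 (rank 251 of the 12623 tested genes), followed by *Irf8* (304), *Junb* (696), *Bach2* (1465), *Irf4* (2322), *Batf3* (3325), *Jun* (3694), *Batf* (4421), *Fosl2* (6043), and *Fos* (11062). With HCME-sEVs *Irf4* and *Batf3* were neighbors in level, with *Irf4* above *Batf3* in every one of the 4 libraries. With LME-sEVs *Jun* stood above *Batf3* in each of the 3 libraries, and *Batf* and *Batf3* could not be separated by their spread. *Jun*, *Junb*, *Jund*, and *Bach2* each have an annotated partner with exons over theirs on the opposite strand, and whether counting used the strand was not stated. For *Junb* that partner, *Prdx2*, had 533 to 968 counts, so the level of *Junb* is uncertain, whereas *Junos* beside *Jun* had 1 to 7 counts, the partner of *Bach2* at most 1, and that of *Jund* 0. No near-identical 3′ end was found for any of the 10 genes.

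The tested genes whose log2 CPM followed *Batf3* most closely over the 7 libraries were *mt-Nd6* (Pearson r = 0.992), which encodes a subunit of respiratory complex I, *St3gal6* (r = 0.991), a sialyltransferase gene, and *Emc8* (r = 0.989), which encodes a subunit of the ER membrane complex. For *Irf4* they were *Dnajc7* (r = 0.988), a co-chaperone gene, *Ociad1* (r = 0.987), and *Pus7l* (r = 0.984). Each came from 7848 genes that averaged 50 counts or more, and all the points share the same 7 libraries and their difference in treatment. *mt-Nd6* fell, at 61.0 ± 11.2 CPM in controls (SD, n = 4) and 29.6 ± 4.97 CPM after LME-sEVs (SD, n = 3), with an edgeR FDR of 1.64e-04. *Emc8*, *Dnajc7*, and *Pus7l* fell by 0.41, 0.39, and 0.52 on the log2 scale, while *St3gal6* and *Ociad1* did not pass the test (edgeR FDR = 0.0652 and 0.103). The calls on *Emc8* and *Pus7l* were lost without LME-sEV library 2 (edgeR FDR = 0.0686 and 0.0566) and that on *Dnajc7* without LME-sEV library 3 (edgeR FDR = 0.0522).

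Among the 22 other AP-1, ATF, and MAF bZIP genes, 19 were tested, 1 rose, 4 fell, and 14 did not pass, with a median log2 fold change of -0.11 (0.01 over all tested genes). For this list and each one below, the shares to compare were 8.96% of all tested genes called, 3.75% higher and 5.21% lower. *Atf3*, a stress-induced ATF repressor that pairs with JUN proteins, was at 16.6, 19.0, 18.7, and 17.2 CPM with HCME-sEVs and 7.0, 7.87, and 11.4 CPM with LME-sEVs. It fell to 49% of its control level and the groups did not overlap (edgeR FDR = 0.00174). *Nfil3*, a bZIP repressor of cytokine-regulated genes, fell, with 27.6 ± 2.33 CPM (SD, n = 4) in controls and 15.1 ± 3.07 CPM (SD, n = 3) with LME-sEVs, and none of its LME-sEV values reached a control value (edgeR FDR = 0.00128). *Fosl1*, the FOS family member FRA1, fell from 5.87 ± 1.93 CPM to 2.02 ± 0.84 CPM (edgeR FDR = 0.00928), and *Crem*, a cAMP-response factor, from 75.4 ± 6.13 CPM to 58.8 ± 4.96 CPM (edgeR FDR = 0.0253).

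*Jdp2*, which encodes a JUN-dimerizing repressor, was the 1 gene of this list that rose, from 20.2 ± 4.31 CPM to 33.6 ± 4.86 CPM (log2 fold change 0.75, edgeR FDR = 0.00398). Its 17.6, 20.5, 26.1, and 16.5 CPM with HCME-sEVs were all below its 28.5, 38.2, and 34.1 CPM with LME-sEVs. *Jdp2* lies between *Fos* and *Batf* on chromosome 12, 122 kb from the former and 46.8 kb from the latter, and *Atf3* lies 61.4 kb from *Batf3* on chromosome 1, positions that were looked up after the values were seen. *Fosb* and *Batf2* had too few counts to be tested. The call on *Fosl1* was lost without LME-sEV library 2 or 3 (edgeR FDR = 0.0691 and 0.0611) and that on *Crem* without HCME-sEV library 1 or 2 or LME-sEV library 1 or 3 (edgeR FDR = 0.0668, 0.0536, 0.0702, and 0.16). Those on *Atf3*, *Nfil3*, and *Jdp2* held with each library left out.

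**Figure D3:**
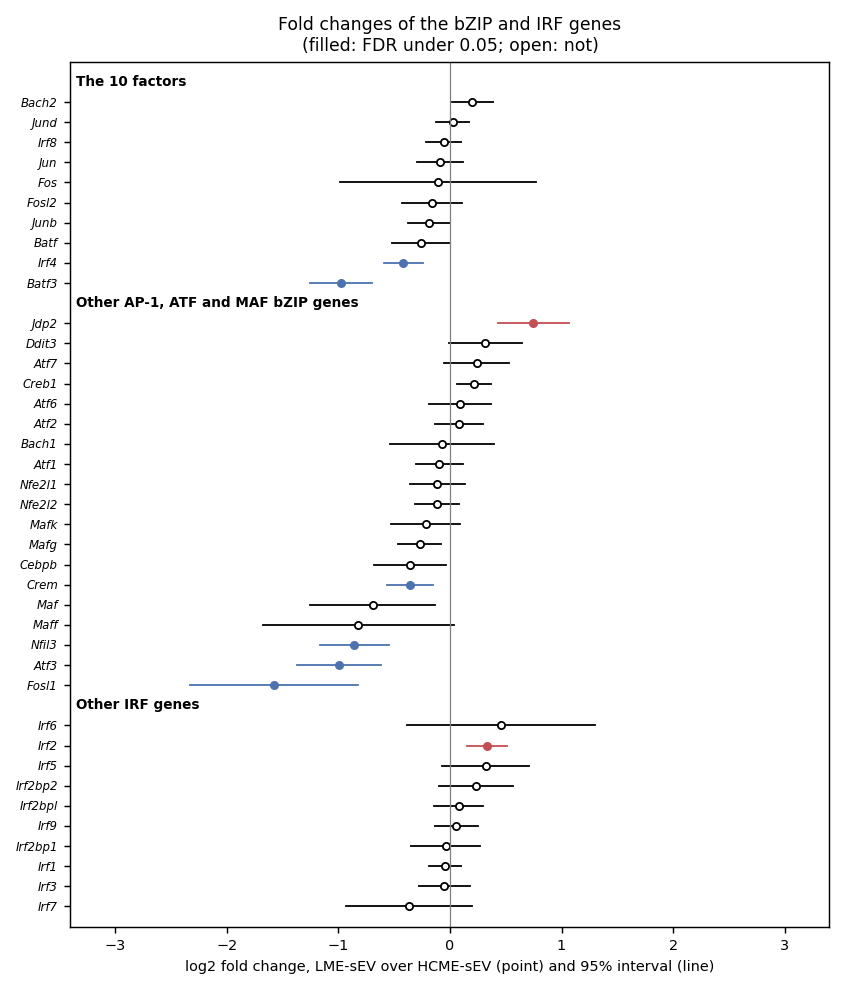
Log2 fold change, LME-sEV over HCME-sEV (x axis), with its 95% interval for the 10 factors, the 19 tested other AP-1, ATF, and MAF bZIP genes, and the 10 other IRF genes. Filled points passed an FDR of 0.05. *Batf3*, *Irf4*, *Fosl1*, *Atf3*, *Nfil3*, and *Crem* lie below 0, and *Jdp2* and *Irf2* above it.

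All 10 other IRF genes were tested, and *Irf2*, a factor that competes with IRF1, was the 1 that was called. It rose, with 128.9 ± 10.4 CPM (SD, n = 4) in controls and 161.8 ± 12.3 CPM (SD, n = 3) with LME-sEVs (edgeR FDR = 0.0196). The median of the list was 0.07. Of the 7 NFAT and TOX genes, whose products bind next to AP-1 or follow NFAT, 6 were tested, *Tox* rose (29.8 to 44.7 CPM, edgeR FDR = 0.0122), and the median was 0.19. Of the 7 ETS genes, which include the partners of IRF4 and IRF8 in B cells and myeloid cells, *Spi1*, *Spib*, and *Spic* were too low to test, *Ets1* rose (183 to 243 CPM, edgeR FDR = 0.0212), and the median was 0.03. Without LME-sEV library 2 the calls on *Irf2*, *Tox*, and *Ets1* were lost (edgeR FDR = 0.0806, 0.102, and 0.108), and those on *Irf2* and *Ets1* also without LME-sEV library 3 (0.134 and 0.116) or HCME-sEV library 2 (0.0537 and 0.0657).

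The next list holds kinases of the pathways that lead to JUN and FOS, and their phosphatases. Beside it and the immediate early genes, 8.96% of all tested genes were called, 3.75% higher and 5.21% lower. Of 20 JNK, ERK, and p38 kinases and their phosphatases, 1 rose (*Map3k1*, 65.1 to 84.2 CPM, edgeR FDR = 0.0172) and 19 did not pass, with a median of -0.03. The call on *Map3k1* was lost without HCME-sEV library 2 or LME-sEV library 2 or 3 (edgeR FDR = 0.0508, 0.083, and 0.0853). Of 14 immediate early genes outside AP-1, which are switched on with *Fos* and *Jun*, *Btg2* rose from 77.5 to 116.7 CPM (edgeR FDR = 0.00104), and the early growth response genes *Egr3* (70.7 to 55.6 CPM, edgeR FDR = 0.0276) and *Egr1* (49.9 to 38.2 CPM, edgeR FDR = 0.0460) fell. The other 11 did not pass, and the median was -0.13. Both *Egr* calls were weak: DESeq2 did not make them (adjusted p = 0.0858 for *Egr1* and 0.0522 for *Egr3*), and *Egr3* lost its call without HCME-sEV library 2 or 4 or any LME-sEV library (edgeR FDR up to 0.109) and *Egr1* without any library but HCME-sEV library 1 (up to 0.207).

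Genes reported to be driven by BATF and IRF4 in T cells moved both ways, with 3 higher, 4 lower, and 6 not passing among 13 tested, and a median log2 fold change of 0.10. Over all tested genes, 3.75% were called higher and 5.21% lower. *Prdm1*, encoding BLIMP1, rose, with 9.72 ± 2.17 CPM (SD, n = 4) in controls and 18.3 ± 2.51 CPM (SD, n = 3) with LME-sEVs (edgeR FDR = 0.0034). The inhibitory receptor genes *Pdcd1* (37.1 to 59.1 CPM, edgeR FDR = 0.00128) and *Ctla4* (120 to 178.5 CPM, edgeR FDR = 0.00307) rose as well. *Tbx21*, the gene of the effector factor T-BET, fell from 101.4 ± 9.78 CPM to 76.3 ± 5.20 CPM (edgeR FDR = 0.0101). *Gzmb*, *Ifng*, and the glucose transporter gene *Slc2a1* fell by 0.35, 0.39, and 0.40 on the log2 scale, with overlapping groups (edgeR FDR = 0.0335, 0.0288, and 0.0263). Without LME-sEV library 2 the calls on *Tbx21*, *Gzmb*, *Ifng*, and *Slc2a1* were lost (edgeR FDR = 0.0724, 0.141, 0.118, and 0.185). *Slc2a1* also lost its call without LME-sEV library 3 or HCME-sEV library 2 (0.149 and 0.0852), and *Gzmb* and *Ifng* without LME-sEV library 1 (0.176 for each), HCME-sEV library 2 (0.134 and 0.0773), or HCME-sEV library 3 (0.0731 and 0.0528), and when scaled by library size alone (0.0655 and 0.0528).

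Genes reported to be repressed by BACH2 numbered 13, of which 11 were tested, 1 rose (*Prdm1*), 4 fell (*Nfil3*, *Il12rb1*, *Id2*, and *Gzmb*), and the median was -0.21. The shares over all tested genes were 3.75% higher and 5.21% lower. *Prdm1*, *Nfil3*, and *Gzmb* also stand in the lists above, so they are not counted as separate evidence. *Il12rb1*, which encodes a chain of the IL12 receptor, fell from 46.8 to 31.1 CPM (edgeR FDR = 0.0102), and *Id2*, an inhibitor of E proteins that favors effector cells, from 378.6 to 298.4 CPM (edgeR FDR = 0.0192). *Il12rb1* lost its call without LME-sEV library 1 or 2 (edgeR FDR = 0.0578 and 0.0645), and *Id2* without LME-sEV library 2 or 3 (0.1 and 0.121).

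Naive and memory genes that are expressed with *Bach2* had the highest median of the lists on the factors and their targets, 0.29 over 12 tested genes, with 4 higher and 7 not passing. Of all tested genes, 3.75% were called higher. *Bcl6*, a repressor opposed to BLIMP1, rose from 8.75 to 20.2 CPM (log2 fold change 1.22, edgeR FDR = 6.62e-04). *Il7r*, the IL7 receptor gene, rose from 207.7 to 297 CPM (edgeR FDR = 0.00125), *Tcf7*, encoding TCF1, from 163 to 230 CPM (edgeR FDR = 0.00493), and *S1pr1*, a receptor for exit from lymphoid organs, from 43.5 to 67.0 CPM (edgeR FDR = 0.0124). *S1pr1* lost its call without LME-sEV library 2 or 3 (edgeR FDR = 0.0666 and 0.075).

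**Figure D4:**
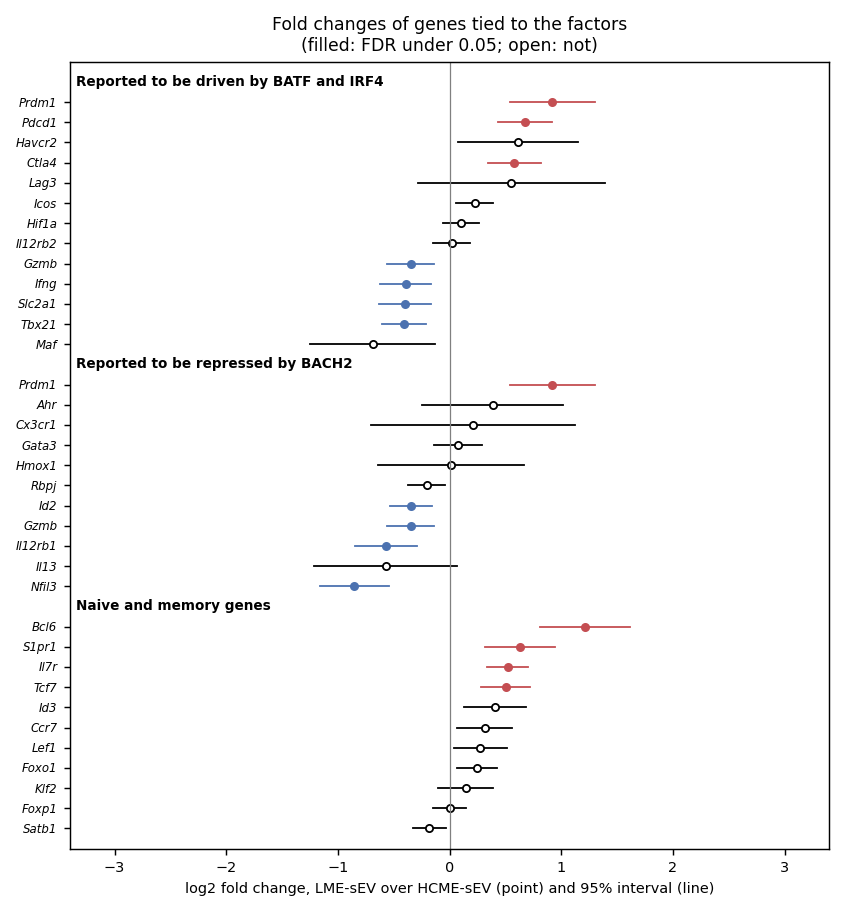
Log2 fold change, LME-sEV over HCME-sEV (x axis), with its 95% interval for genes reported to be driven by BATF and IRF4, genes reported to be repressed by BACH2, and 11 of the naive and memory genes. Filled points passed an FDR of 0.05, and the BATF and IRF4 list and the BACH2 list each hold calls on both sides of 0.

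Over these lists together, 26 of 105 tested genes were called (24.8%, against 8.96% of all tested genes), 13 higher and 13 lower. The lists were chosen with earlier results of these libraries known, so this share is no independent evidence. Of the 26 calls, 10 held under every one of the 15 alternatives (*Atf3*, *Nfil3*, *Jdp2*, *Prdm1*, *Pdcd1*, *Ctla4*, *Bcl6*, *Il7r*, *Tcf7*, and *Btg2*). Without LME-sEV library 2 the counts were 8 higher and 4 lower.

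The calls on *Batf3* and *Irf4* held in all 15 alternatives, of which 7 each left out 1 library. For *Batf3* the log2 fold change stayed between -1.07 and -0.83, and for *Irf4* between -0.44 and -0.37. *Bach2* and *Jund* kept values above 0 in the 15 fits without a call, and *Jun*, *Junb*, and *Fosl2* kept values below 0 without one.

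**Figure D5:**
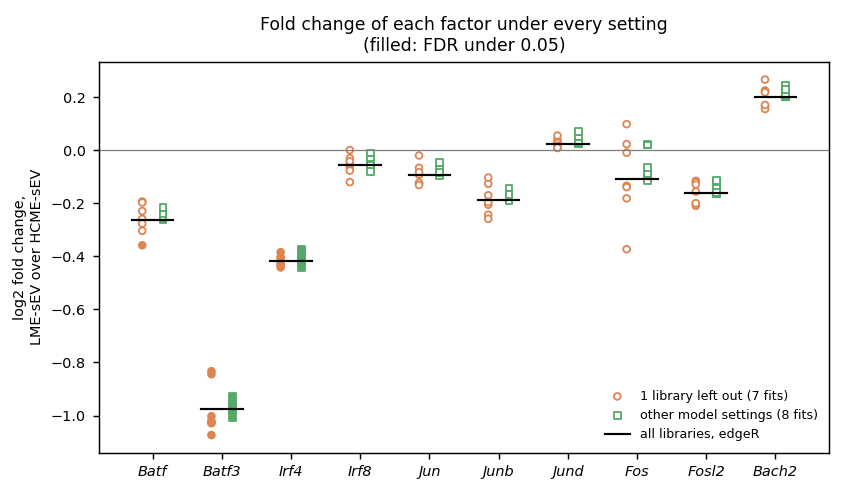
Log2 fold change, LME-sEV over HCME-sEV (y axis), of each of the 10 factors with all libraries (line), with 1 library left out (circles, 7 fits), and under other model settings (squares, 8 fits). Filled symbols passed an FDR of 0.05, which holds for every *Batf3* and *Irf4* symbol and for 1 *Batf* symbol.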

How the data were processed

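The authors deposited whole-number counts per gene for 7 libraries, made with QuantSeq 3′ FWD kits and molecular identifiers. Per the labels they used cutadapt 2.10, STAR 2.5.3a on GRCm38, UMI-tools 1.0.0, and featureCounts of Subread 2.0.0. The annotation release and strand setting are not given in the sources used here. Groups came from the treatment labels, which give 4 control and 3 leukemia libraries. A legend in the study gives these group sizes the other way round, and the labels were followed. The study's methods for cultured CD8+ T cells name anti-CD3, anti-CD28, and IL2, which the labels do not mention.

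Genes averaging 5 counts or more entered the fit, and LME-sEV libraries were compared with HCME-sEV libraries by edgeR 4.0.16 in R 4.3.3 (TMM, glmQLFit, glmQLFTest, no covariate), with Benjamini-Hochberg adjustment. Log2 CPM used a prior count of 2, and permutation tests were exact over 35 assignments of the libraries. The steps were tested on simulated data. Alternatives used DESeq2 1.42.0, limma-voom (limma 3.58.1), other scaling, other filters, a replicate block, and each library left out. Every pair of libraries within a group differed beyond sampling noise (chi-square per degree of freedom 2.12 to 6.02). Totals of 3689831 to 5030522 counts set the precision.

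The 10 factors and all lists were chosen with earlier results of these data known. Named were the 10 factors, up to 6 called genes per related list by FDR, and for each called factor the 3 genes of highest Pearson r. Called marker genes and genes singled out by their counts were named after their values were seen. Coordinates came from GENCODE vM21 (GRCm38), promoters from RefSeq (GRCm38.p6). GC and TATA boxes were added as motifs after the files were seen. Copies of the last 300 transcript bases were sought by blast 2.17.0 (95% identity, 200 bases). Protein sequences were not used here. Among the naive and memory genes, 1 called gene is counted in the totals but not reported here.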

Additional observations from a re-analysis of the deposited data

Results flagged for a closer look

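In 4 of 67 quantities compared, 1 of the 4 HCME-sEV libraries stood apart from the other 3. Chance alone does this in about 1 in 20 independent groups, which comes to 3.35 of 67. These quantities share libraries and in part genes, so that number is only a rough guide. *Batf3* was highest in library 1, at 99.5 CPM against 70.2 to 74.8 CPM, and the gap to the next library made up 0.843 of the range of the group. *Emc8* was also highest in library 1, at 144.3 CPM against 122 to 126 CPM (0.841 of the range). *Tox* was lowest in library 1, at 20.7 CPM against 32.2 to 33.6 CPM (0.889 of the range). *Il7r* was highest in library 3, at 249.9 CPM against 188 to 197 CPM (0.857 of the range). Without library 1 the log2 fold changes of *Batf3*, *Emc8*, and *Tox* were -0.84, -0.35, and 0.45, and without library 3 that of *Il7r* was 0.62, each with an edgeR FDR under 0.05. Over all genes, library 1 differed from controls 2, 3, and 4 by a chi-square per degree of freedom of 4.23, 6.02, and 4.12. The control pairs without library 1 gave 2.12, 2.86, and 3.63.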

How the results depend on the processing

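Of the comparisons recomputed, 663 were unchanged, 60 lost a call, 1 gained one (*Batf*, above), and 5 changed sign. Another 11 were counts of genes that moved by more than 1.5 times, all of them with 1 library left out. Fold changes were unchanged if they kept their direction and their side of the threshold. Counts of genes were unchanged if they moved by 1.5 times or less. Differences of mean log2 CPM, recomputed at prior counts of 0.5 and 5, were unchanged if they moved by less than the larger group SD. The sign changes concerned factors that were never called: *Fos* had a log2 fold change of 0.0225 with limma-voom and 0.0192 under the replicate block, and with single libraries left out it ran from -0.37 to 0.10, above 0 without HCME-sEV library 3 or 4. *Irf8* ran from -0.12 to 0.00039, the last without LME-sEV library 3. With each library left out in turn, all tested genes gave 170 to 537 higher and 223 to 756 lower calls, against 473 and 658. The lowest pair came without LME-sEV library 2, and 198 and 263 remained without LME-sEV library 3 and 299 and 417 without HCME-sEV library 2. The related lists gave 8 to 16 higher and 4 to 14 lower, against 13 and 13, with 7 lower without HCME-sEV library 2, 6 without LME-sEV library 1, and 6 without LME-sEV library 3. The 10 factors gave 0 higher and 2 to 3 lower.

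Scaling by library size alone moved the median of all genes by 0.045 and gave 614 higher and 465 lower calls, 56.9% higher against 41.8% with TMM. DESeq2 gave 321 and 529. Groups shared the numbers 1 to 3, and deviations of same-numbered libraries correlated at 0.072, 0.155, and 0.027. Those of differently numbered libraries ran from -0.206 to 0.080. These values do not settle whether the numbers mark pairs, and the main fit did not use them. With the replicate block 594 genes were higher and 860 lower, the lists gave 18 and 15, and the 10 factors 0 and 2. HCME-sEV libraries 1 and 2 correlated best with the LME-sEV library of the same number, and HCME-sEV library 3 with LME-sEV library 1 (0.080). Depth limits *Fos* most, at 4 to 13 counts, and 3 or 4 libraries a group make each SD imprecise.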
